A study of Mus musculus with 6 samples.

Results

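The genes described here are 30 transcription factors of stratified epithelium, the layered tissue that lines the esophagus and covers the skin. They were chosen by name, as Kruppel-like factors, grainyhead-like factors, epithelial ETS factors, Ovo, Zfp750 and Prdm1 zinc finger factors, C/EBP and Maf leucine zipper factors, AP-2 factors, and homeobox and POU factors. No probe of Grhl3 was matched by symbol or accession, so 29 of the 30 genes had at least 1 of the 51 member probes, out of 28104 genes and 41174 probes on the array. 28 of them were bright enough to be tested, and Barx1 was not.

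The study compared K5Cre;Pax9 loxP/loxP mice with WT mice, all adult C57BL/6J. Pax9 is a paired-box transcription factor, and the keratin 5 promoter drives Cre in the basal layer of stratified epithelia, so that the allele is recombined there and not in every tissue. The source label names esophageal epithelium, while the extraction protocol speaks of esophageal tissue. The comparison asks which of the named factors differ in level when Pax9 is lost. Each group had 3 arrays, given by the labels as biological replicates with no word on separate animals or litters. P-values here therefore cover only the spread among these arrays, which may be technical. Each two-colour array carried RNA of the esophagus in Cy5 and 1 common reference in Cy3, a commercial RNA mix of cultured mouse cell lines, with no dye swap. A value below is the log2 ratio of Cy5 over Cy3 after normalization of each array, and 1 unit is 2-fold. A value of 0 means the usual balance of the channels for spots of that intensity on the array, not equal scanner signals. Levels above or below the reference are meant in this normalized sense.

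Stratified epithelia renew from a basal layer. Cells that leave this layer stop dividing and switch on a programme of differentiation and barrier genes. Klf4, Grhl1, Grhl3, Ovol1, Zfp750, Prdm1 and the C/EBP factors are known for roles in that switch, mostly from mouse epidermis and from human keratinocytes, while Klf5 acts in the dividing basal cells of the mouse esophagus. Grhl2, Ovol2, Elf3, Elf5 and Ehf are known for keeping epithelial identity, in part through cadherin and claudin genes and through repression of mesenchymal genes.

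The probe of the targeted gene went against the genotype labels. Pax9 (probe at chr12:57811169-57811228 on mouse build mm9) measured 6.81, 6.78 and 6.72 on the arrays labelled knockout, against 6.28, 6.13 and 5.70 on the arrays labelled wild type. It was higher on all 3 arrays labelled knockout, by 0.73 ± 0.18 (moderated SE), but not past the threshold (limma adjusted p = 0.071). In Cy5 alone the difference was 1.22 and passed it (limma adjusted p = 0.0056), and in the log ratio the authors deposited it was 0.51 (limma adjusted p = 0.38). Whether this probe lies in the deleted part of the gene was not analysed here, so it cannot check the labels, and the groups are named below by their labels. All 14 markers of esophageal epithelium, among them Krt5 and Krt15, were well above background on all 6 arrays and made up 1.09 to 1.47% of the Cy5 signal on the arrays labelled knockout and 1.13 to 1.52% on those labelled wild type. The 12 markers of skeletal muscle, which surrounds the mouse esophagus, made up 0.178, 1.18 and 0.196% on the arrays labelled knockout, against 0.0439, 0.485 and 0.0491% on those labelled wild type, so replicate 2 held the most muscle signal in each group. The arrays labelled knockout shared 1 slide and those labelled wild type another, so slide and genotype cannot be told apart.

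After normalization, the members mostly stood far higher in the esophagus RNA than in the cell line reference, in both groups. 25 of the 28 tested members had a mean ratio above 0 in both groups (89.3%, against 47.8% of the 20820 tested genes), and 12 were over 16-fold above the reference in both (42.9%, against 2.45%). Those 12 were Klf4, Grhl1, Grhl2, Elf5, Ehf, Ovol1, Zfp750, Cebpa, Tfap2c, Hopx, Barx2 and Pitx1. Grhl1, Elf5, Zfp750 and Pitx1 were over 64-fold above it. Cebpd, a C/EBP factor made by many cell types, averaged -0.77 ± 0.14 on the arrays labelled knockout and -0.88 ± 0.66 on those labelled wild type (SD, n = 3 each), which is below the reference in both. These normalized ratios say how a gene's signal stood to its own signal in the reference and do not rank the genes by their amount of RNA. Among the 25 above 0 were Tfap2b and Pou2f3, both near background. On the arrays labelled wild type the scanner's Cy5 signal of Tfap2b was 88.3, 103 and 167, below its Cy3 signal of 194, 203 and 221.

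**Figure D1:**
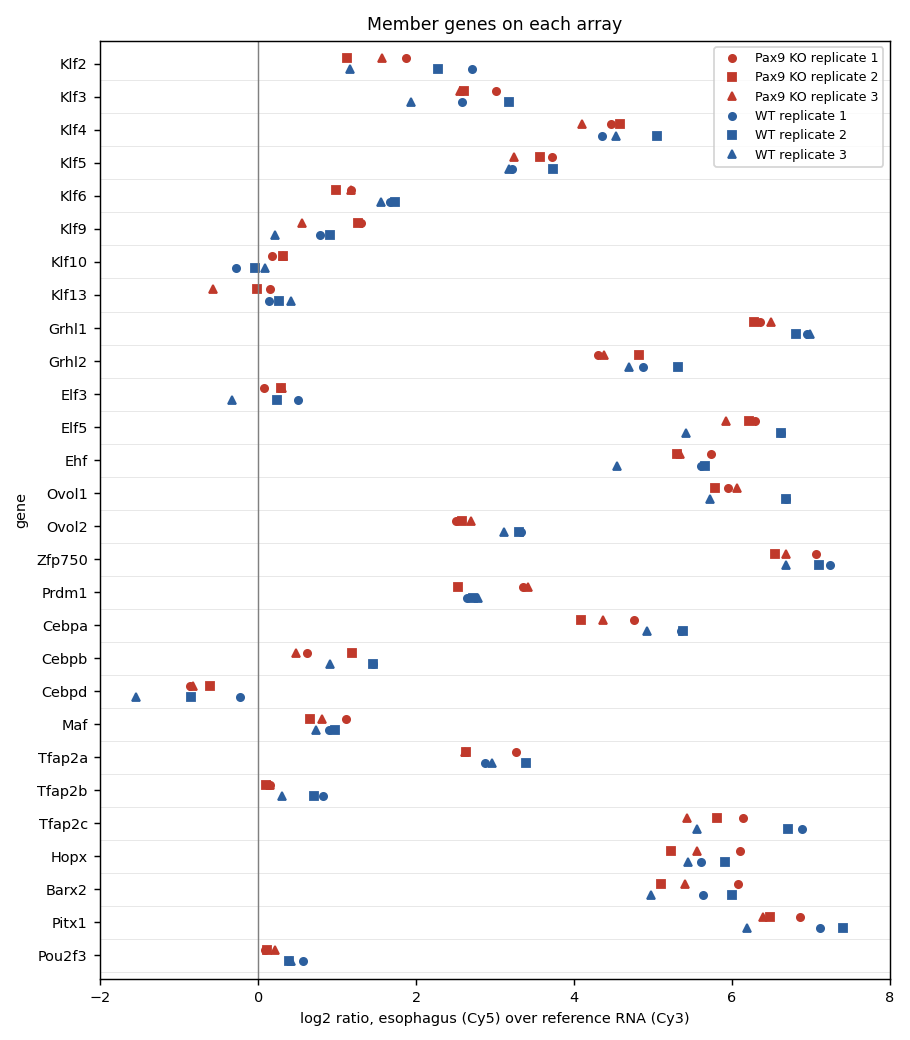
The log2 ratio of esophagus over reference RNA (horizontal axis) of the 28 tested member genes on each array, with the 3 arrays labelled Pax9 KO in red above the 3 labelled WT in blue, and the marker shape giving the replicate number. Most genes lie to the right of 0, and the colours overlap in all but 7 genes.

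None of the 28 tested members passed the threshold, an adjusted p under 0.05 in the limma fit over 30505 tested probes, while 4.84% of all tested genes did (2.83% higher and 2% lower). With the replicate number as a block, which pairs the arrays, 8.2% of all genes passed, and with 1 array left out at a time 0.163 to 3.97%, again with no member among them. At an unadjusted p under 0.05 there were 6 members, all lower on the arrays labelled knockout (Ovol2, Klf6, Grhl1, Cebpa, Tfap2b and Pou2f3), beside 24.7% of all tested genes (11.5% lower and 13.2% higher). The probes of Tfap2b and Pou2f3 counted here entered the test only through the arrays labelled wild type, where they were brighter. Their direction is therefore no support for a count of lower genes. The other 4 members were well above background on all 6 arrays. The arrays of the groups did not overlap for those 6 and for Klf10, which was higher, and the share of all genes without overlap was 32.2% (15.1% lower and 17.1% higher). The difference, labelled knockout minus labelled wild type, was below 0 for 20 members and above 0 for 8, with a median of -0.25 against 0.01 over all tested genes, of which 48.5% were below 0. This lean toward lower values was not tested. In such bulk RNA, fewer cells of a type and less RNA per cell cannot be told apart.

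On the brightest tested probe, the 95% interval of the difference excluded a 2-fold change in either direction for 21 of the 28 members. Of the other 7, the intervals of Klf2, Ovol1, Cebpa, Cebpb, Tfap2c and Pitx1 reached beyond a 2-fold fall, and that of Klf9 reached beyond a 2-fold rise. The 21 include Tfap2b and Pou2f3, which were too near background for their intervals to exclude a 2-fold change in RNA. Other probes of some of the 21 had intervals that reached beyond 2-fold, such as 1.07 to 3.38 for Tfap2b and -1.01 to 1.64 for Klf5. The median SD within a group was 0.32 for the members and 0.24 for all tested genes. Replicate 3 of the arrays labelled wild type was the lowest of its group in 21 of the 28 members (75%, against 35.9% of all tested genes), and it had the highest median Cy5 signal of the 6 arrays.

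**Figure D2:**
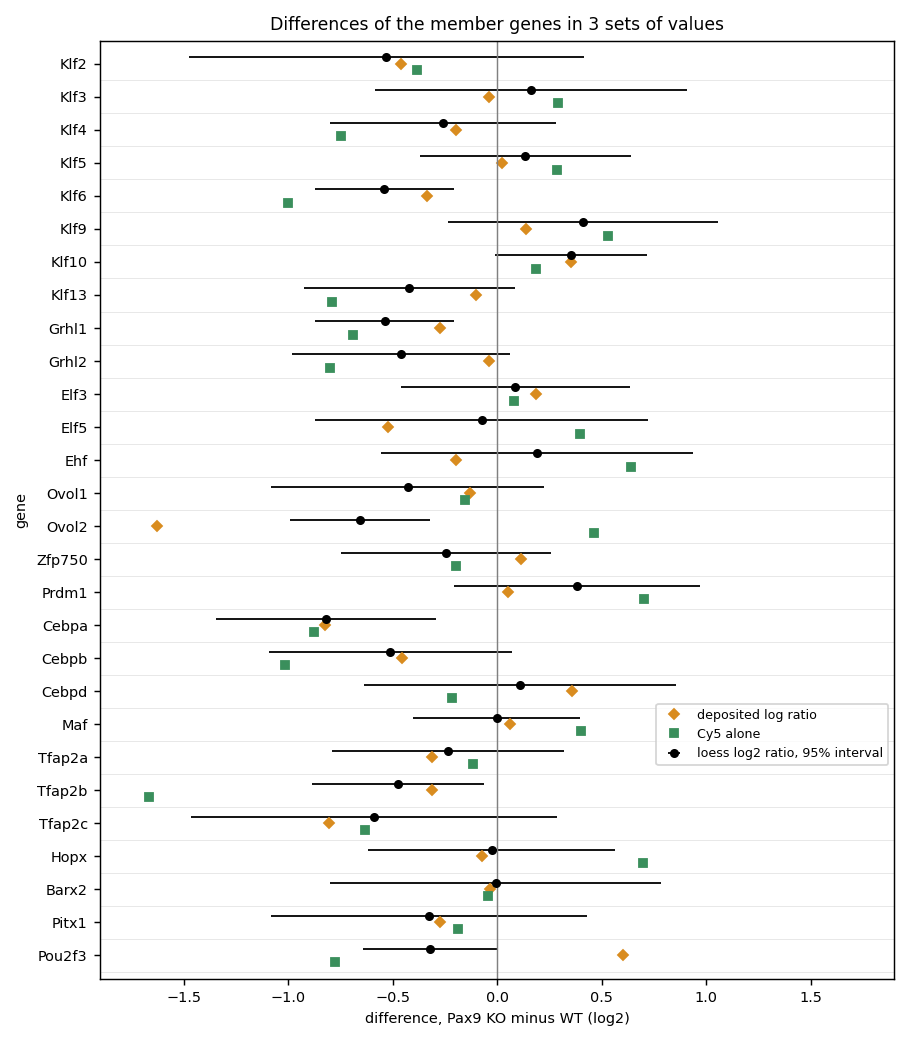
The difference of labelled Pax9 KO minus labelled WT on the log2 scale (horizontal axis) of each tested member, from the loess log2 ratio with its 95% interval (black), from the log ratio the authors deposited (orange) and from Cy5 alone (green). Ovol2 spreads from -1.63 in the deposited log ratio to 0.46 in Cy5 alone, and Cebpa stays between -0.88 and -0.82.

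Among the 8 Kruppel-like factors, zinc finger proteins that bind GC-rich promoter elements, 4 had a difference below 0 and 4 above 0, with a median of -0.06. Klf4, which drives barrier formation in mouse epidermis, measured 4.47, 4.58 and 4.10 on the arrays labelled knockout, against 4.35, 5.05 and 4.53 on those labelled wild type. The groups overlapped, and the difference was -0.26 with an interval of -0.80 to 0.28 (limma adjusted p = 0.53). Klf5, its basal layer relative, measured 3.73, 3.56 and 3.24 on the arrays labelled knockout, against 3.21, 3.74 and 3.18 on those labelled wild type, a difference of 0.13 with an interval of -0.37 to 0.64. Neither factor's interval reached a 2-fold change on these probes. A second, dimmer Klf5 probe differed by 0.32 ± 0.56, and its interval of -1.01 to 1.64 reached a 2-fold change in both directions.

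Klf6, a widely expressed factor known as a tumour suppressor, measured 1.17, 0.98 and 1.17 on the arrays labelled knockout, against 1.67, 1.73 and 1.55 on those labelled wild type. The difference of -0.54 ± 0.14 (SE) came with a limma adjusted p of 0.077, and the groups did not overlap. A second Klf6 probe differed by -0.45 ± 0.27, with overlapping groups. Klf10, a gene induced by TGF-beta, was the member without overlap in the other direction. It measured 0.18, 0.31 and 0.31 on the arrays labelled knockout, against -0.29, -0.05 and 0.08 on those labelled wild type (difference 0.35 ± 0.15, limma adjusted p = 0.23). The remaining Kruppel-like factors overlapped between the groups. Klf2, best known from endothelium and resting T cells, differed by -0.53 ± 0.40, and Klf13 by -0.42 ± 0.21. Klf3, a repressor, differed by 0.16 ± 0.32, and Klf9, which glucocorticoids induce, by 0.41 ± 0.27. A second probe of Klf9 gave -0.14 ± 0.23. The endothelial markers, to set beside Klf2, had 0.00245 to 0.00309% of the Cy5 signal on the arrays labelled knockout and 0.00188 to 0.00355% on those labelled wild type. Their part in the Klf2 values was not tested.

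Grhl1, which acts on desmosomal cadherin genes in mouse skin, had a pair of probes that disagreed. They lie close together on chromosome 12, at chr12:25301994-25302053 and chr12:25302082-25302142 on mm9. The first 30 of the 60 bases of each are printed because these near neighbours gave different answers.
Grhl1 brightest probe: agaaatacaattgcgggtttctttaggttc
Grhl1 other probe: aaagtactctaatgaagtatgtgaacaaaa
The brightest probe measured 6.35, 6.28 and 6.50 on the arrays labelled knockout, against 6.95, 6.82 and 6.99 on those labelled wild type, and the other 6.47, 6.70 and 6.70 against 6.91, 6.55 and 6.36. The groups stood apart on the first probe, by -0.54 ± 0.14 (limma adjusted p = 0.077), and overlapped on the second, which differed by 0.02 ± 0.18. Both probes put Grhl1 far above the reference on every array.

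Grhl2, the grainyhead-like factor that maintains Cdh1 and Cldn4, measured 4.30, 4.82 and 4.38 on the arrays labelled knockout, against 4.88, 5.31 and 4.70 on those labelled wild type. The groups overlapped, with a difference of -0.46 ± 0.22 (limma adjusted p = 0.26). Its other probes, which were dimmer, differed by -0.09 ± 0.19 and 0.01 ± 0.16.

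The ETS factors Elf3, Elf5 and Ehf belong to a subfamily expressed mainly in epithelia, and their differences lay between -0.07 and 0.19. Elf5 measured 6.29, 6.21 and 5.93 on the arrays labelled knockout, against 6.63, 6.62 and 5.41 on those labelled wild type, so its lowest and its highest values were both from arrays labelled wild type. The difference was -0.07 ± 0.34. Ehf measured 5.73, 5.30 and 5.35 on the arrays labelled knockout, against 5.61, 5.65 and 4.54 on those labelled wild type, a difference of 0.19 ± 0.32. Elf3 stood near the reference, at 0.22 ± 0.13 on the arrays labelled knockout and 0.13 ± 0.43 on those labelled wild type (SD, n = 3 each), a difference of 0.09 ± 0.23. Replicate 3 of the arrays labelled wild type was the lowest of all 6 arrays for each of the 3 ETS factors. The Elf3 and Ehf differences were below 0 without that array, at -0.15 and -0.17.

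Ovol2, a zinc finger repressor of mesenchymal genes such as Zeb1, came nearest to the threshold. Its brightest probe lies at chr2:144131200-144131259 on mm9. A second probe spans chr2:144143597-144156659, a stretch longer than its 60 bases. The probes are annotated to different transcripts of the gene, and the first 30 bases of each are printed.
Ovol2 brightest probe: tcccctggatcttttcatattcagtccacc
Ovol2 other probe: ttgccaggtcaaaaatcaagtttaccaccg
The brightest probe measured 2.50, 2.58 and 2.69 on the arrays labelled knockout, against 3.32, 3.31 and 3.11 on those labelled wild type. All 3 arrays labelled knockout were lower, by 0.66 ± 0.14 on the log2 scale as a group (limma adjusted p = 0.053), and the second probe differed by -0.55 ± 0.33 with overlapping groups.

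The separate channels of the brightest Ovol2 probe ran against this difference. Its Cy3 signal, which comes from the same reference RNA on every array, was 275, 224 and 260 on the arrays labelled knockout, against 93.1, 79.1 and 108 on those labelled wild type. After normalization between arrays the reference channel differed by 1.12 on the log2 scale, and the esophagus channel by 0.46, higher on the arrays labelled knockout (limma adjusted p = 0.072). In the log ratio the authors deposited, the difference was -1.63 (limma adjusted p = 0.025). Ovol2 was the only member past the threshold in that ratio, as were 2.74% of all tested genes. So the ratio was lower on the arrays labelled knockout while the esophagus signal itself was not.

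The other zinc finger factors overlapped between the groups. Ovol1, which restrains proliferation in mouse epidermis, measured 5.95, 5.78 and 6.07 on the arrays labelled knockout, against 6.68, 6.68 and 5.73 on those labelled wild type, a difference of -0.43 ± 0.28 that was -0.07 ± 0.18 on its other probe. Zfp750, a differentiation factor known from human keratinocytes, measured 7.07, 6.55 and 6.68 on the arrays labelled knockout, against 7.25, 7.10 and 6.68 on those labelled wild type (difference -0.25 ± 0.21). Prdm1, a transcriptional repressor that acts in the terminal differentiation of skin cells and lymphocytes, measured 3.35, 2.53 and 3.42 on the arrays labelled knockout, against 2.65, 2.72 and 2.79 on those labelled wild type. Its difference of 0.38 ± 0.25 went with a wider spread on the arrays labelled knockout, where replicate 2 stood below the rest.

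Cebpa, a leucine zipper factor linked to cell cycle exit in mouse epidermis, had the largest difference of the 28 on its representative probe, and its other probe moved with it. The probes lie at chr7:35906517-35906576 and chr7:35905361-35905420 on mm9, and their first 30 bases are given because both point the same way.
Cebpa brightest probe: ttttgttttggttttgctctgattcttgcc
Cebpa other probe: cgtggagacgcaacagaaggtgctggagtt
The brightest probe measured 4.76, 4.08 and 4.36 on the arrays labelled knockout, against 5.36, 5.38 and 4.93 on those labelled wild type, and the other 2.71, 1.92 and 2.37 against 3.99, 3.20 and 3.12. The groups did not overlap on either probe. The differences were -0.82 ± 0.22 and -1.10 ± 0.30, with limma adjusted p-values of 0.085 and 0.083. After normalization, the Cy3 reference signal of the brightest probe differed by -0.06 and its Cy5 signal by -0.88 (limma adjusted p = 0.030). Before normalization, its Cy5 signals were 5794, 4455 and 5351 on the arrays labelled knockout, against 5047, 5414 and 12800 on those labelled wild type, which overlapped. Its Cy3 signals were 438, 465 and 464 against 553, 508 and 633, which did not, so the channel of the difference depends on the normalization. For the other probe the scanner's Cy3 signals were 97.7, 106 and 89.3 on the arrays labelled knockout, against 46.1, 37.4 and 46.7 on those labelled wild type, and its Cy5 signals were 461, 313 and 386 against 463, 317 and 553, before normalization. The reference signal of that probe did not overlap between the groups, while its esophagus signal did. The deposited log ratio gave -0.83 (limma adjusted p = 0.20).

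Cebpb, its relative in the same layer, measured 0.62, 1.19 and 0.48 on the arrays labelled knockout, against 1.46, 1.45 and 0.91 on those labelled wild type. The groups overlapped, with differences of -0.51 ± 0.25 and -0.42 ± 0.24 on its probes. Maf, a factor of human epidermal differentiation that macrophages also make, differed by -0.00 ± 0.17 on its brightest probe and by -0.07 to 0.60 on the other 3. The macrophage and dendritic markers held 0.0204 to 0.0413% of the Cy5 signal on the arrays labelled knockout and 0.0258 to 0.0823% on those labelled wild type, and their part in the Maf values was not tested. Cebpd differed by 0.11 ± 0.32.

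The AP-2 factors bind GC-rich elements of many keratin genes. Tfap2c measured 6.14, 5.80 and 5.43 on the arrays labelled knockout, against 6.89, 6.71 and 5.55 on those labelled wild type, and its difference of -0.59 ± 0.37 was within the overlap of the groups. Tfap2a, which is expressed in the basal layer of mouse skin, averaged 2.84 ± 0.37 on the arrays labelled knockout and 3.08 ± 0.28 on those labelled wild type (SD, n = 3 each). The difference was -0.24 ± 0.24, and -0.51 ± 0.14 on a second, dimmer probe (limma adjusted p = 0.081).

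Tfap2b, the AP-2 factor best known from kidney and neural crest, had 3 probes that did not give 1 answer. A pair of them overlap on chromosome 1, at chr1:19224486-19224545 and chr1:19224526-19224585 on mm9. Their ends are printed with the 20 shared bases in capitals, because probes with so much sequence in common gave different readings.
Tfap2b upstream probe, last 25 bases: ggaggAATTATATTAGGTAGAATAC
Tfap2b downstream probe, first 25 bases: AATTATATTAGGTAGAATACacata
The upstream probe had a Cy5 signal of 432, 143 and 439 on the arrays labelled knockout, against 27.1, 8.05 and 65.4 on those labelled wild type, where 2 of 3 arrays had it well above background. Its log2 ratio differed by 2.23 ± 0.49 (limma adjusted p = 0.054). The probe entered the test only through the arrays labelled knockout, where it was brighter, so that p-value is no support for a direction. The overlapping downstream probe did not stand well above background on any of the 6 arrays.

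The third Tfap2b probe, the brightest by mean intensity and so the one that stands for the gene, went the other way. It lies at chr1:19226634-19226693 and measured 0.14, 0.10 and 0.15 on the arrays labelled knockout, against 0.82, 0.70 and 0.29 on those labelled wild type, a difference of -0.48 ± 0.17 (limma adjusted p = 0.16). In Cy5 it stood well above background on 1 of 3 arrays labelled knockout and on 3 of 3 labelled wild type. The Cy3 signal of the reference on this probe was 18.2, 17.0 and 25.9 on the arrays labelled knockout, against 194, 203 and 221 on those labelled wild type. A direction for Tfap2b therefore depends on the probe, and each tested probe entered the test only through the group where it was brighter.

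**Figure D3:**
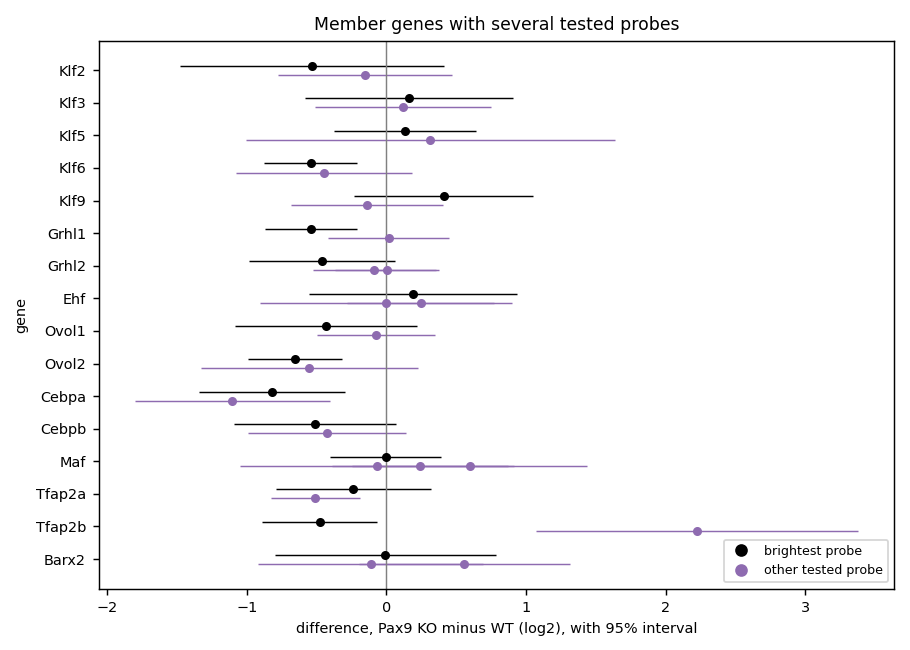
The difference of labelled Pax9 KO minus labelled WT on the log2 scale with its 95% interval (horizontal axis) for each tested probe of the 16 member genes with several, the brightest probe in black and the others in purple. The Cebpa probes lie together below 0, and the Tfap2b probes lie on either side of it, at -0.48 and 2.23.

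Of the 16 members with several tested probes, 7 had probes that differed in sign, beside 47.4% of the 6860 genes with several tested probes in all. Barx2 was among them, with a pair of probes that share 50 of their 60 bases and differed by 0.56 ± 0.32 and -0.11 ± 0.34.

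The homeobox factors were high and overlapped between the groups. Barx2, Hopx and Pitx1 measured over 16-fold above the reference in both groups. Barx2 measured 6.08, 5.10 and 5.41 on the arrays labelled knockout, against 5.63, 6.00 and 4.98 on those labelled wild type (difference -0.01 ± 0.34). Hopx, an atypical homeodomain protein that does not bind DNA directly, measured 6.10, 5.23 and 5.56 on the arrays labelled knockout, against 5.61, 5.91 and 5.45 on those labelled wild type (difference -0.03 ± 0.25). Pitx1, known from hindlimb and oral epithelium, differed by -0.33 ± 0.32. In Barx2 and Hopx, replicate 2, the replicate with the most muscle signal in each group, was the lowest array labelled knockout and the highest labelled wild type. Without replicate 2 of both groups, a setting chosen after seeing the data, the differences were 0.44 for Barx2 and 0.30 for Hopx, neither past the threshold. The part of muscle in these values was not tested.

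Pou2f3, a POU factor of keratinocytes and tuft cells, was near background. It measured 0.09, 0.11 and 0.22 on the arrays labelled knockout, against 0.57, 0.39 and 0.42 on those labelled wild type. It was not well above background on any of the 3 arrays labelled knockout and was on all 3 labelled wild type. The ratio differed by -0.32 ± 0.14 (limma adjusted p = 0.21), and no fold is given from a group in which no array measured the gene. The reference signal of the same probe was 5.12, 5.02 and 2.97 on the arrays labelled knockout and 42.8, 40.8 and 45.3 on those labelled wild type, and the deposited log ratio gave a difference of 0.60. Barx1, known from the mesenchyme of the stomach, was well above background on 2 of 3 arrays in each group, with Cy5 signals of 66.2, 13.5 and 36.4 on the arrays labelled knockout, against 11.4, 25.6 and 134 on those labelled wild type.

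The channels were compared for all members after the Ovol2 and Tfap2b values had been seen. In the Cy3 channel, where every array had the same reference RNA, 51.8% of all tested genes passed the threshold between the slides, and so did 12 of the 28 members (42.9%), 4 of them higher and 8 lower on the slide of the arrays labelled knockout. In Cy5 alone, 8 members passed it, all lower on the arrays labelled knockout (28.6%, against 30.7% of all tested genes). These 8 members were Klf4, Klf6, Klf13, Grhl1, Cebpa, Cebpb, Tfap2b and Pou2f3. The Tfap2b and Pou2f3 probes compared here were tested only because of their Cy5 signal on the arrays labelled wild type, which favours a lower value on the others. For 6 of these 8 the Cy3 channel also passed the threshold in the same direction, the exceptions being Grhl1 and Cebpa. The Cy3 channel of Grhl1 still differed by -0.15 (limma adjusted p = 0.085), without overlap between the groups.

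**Figure D4:**
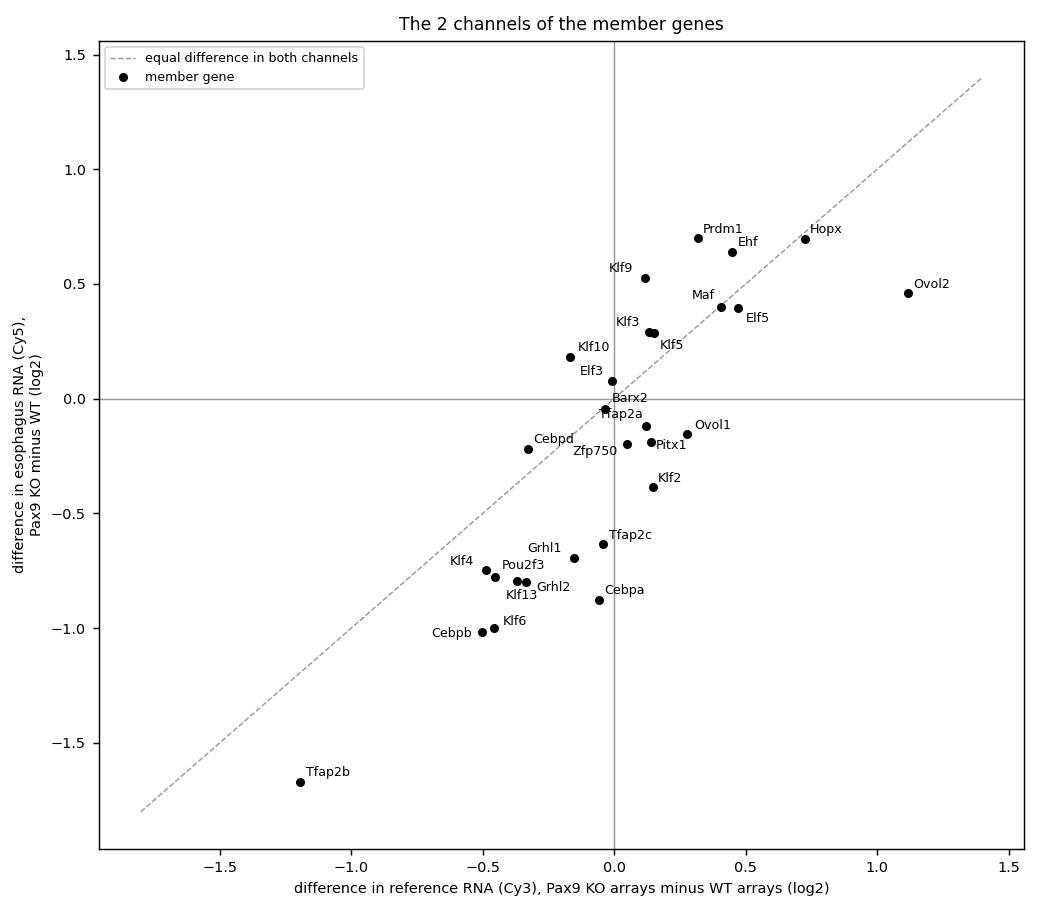
For each tested member, the difference between arrays labelled Pax9 KO and arrays labelled WT in the reference RNA (Cy3, horizontal axis) and in the esophagus RNA (Cy5, vertical axis), both on the log2 scale, with the dashed line marking equal differences. Maf and Hopx lie on the line, Ovol2 lies far to the right of it at 1.12, and Cebpa, by its brightest probe, lies below it at -0.06 in the reference.

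Other genes of the same pathway were listed to show what the same arrays called. The lists were chosen with earlier results of these data known, so the shares called in them are no support for a result about the lists. Among 26 tested further members of the same families, Pitx3 rose and Klf8 fell, which is 7.69% beside 4.84% of all genes. Pitx3, a homeobox factor known from lens and midbrain, averaged 2.28 ± 0.18 on the arrays labelled knockout and 0.52 ± 0.07 on those labelled wild type (SD, n = 3 each), a difference of 1.76 ± 0.15 (SE, limma adjusted p = 0.0066), while its relative Pitx1 in the member list did not pass. Klf8, a Kruppel-like repressor, averaged 0.91 ± 0.27 on the arrays labelled knockout and 1.88 ± 0.18 on those labelled wild type (SD, n = 3 each), a difference of -0.97 ± 0.19 (SE, limma adjusted p = 0.040). Klf11 had the next smallest p, with a difference of 0.60 ± 0.15 (limma adjusted p = 0.072). Leaving out any 1 array left 1 gene of this list past the threshold. The count was also 1 with the deposited log ratio, with median centring, and with probes well above background on all 6 arrays.

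Among 30 other transcription regulators of stratified epithelium, 4 fell on the arrays labelled knockout and none rose. That is 13.3%, beside 4.84% of all tested genes (2% lower), in a list chosen with earlier results of these data known. The 4 were Gata3 (-3.54 ± 0.50), Sox2 (-1.04 ± 0.16), Dlx3 (-1.04 ± 0.19) and Dlx5 (-1.15 ± 0.21), with limma adjusted p-values of 0.020, 0.023, 0.033 and 0.036. In the deposited log ratio the differences were -4.58, -0.06, -0.37 and -1.54, of which Gata3 and Dlx5 passed the threshold. With 1 array left out, 0 of this list passed without labelled knockout replicate 1 or 3 or labelled wild-type replicate 1 or 2, 2 without labelled knockout replicate 2, and 3 without labelled wild-type replicate 3. Dlx5, a homeobox factor of skin and bone, averaged 1.25 ± 0.32 on the arrays labelled knockout and 2.40 ± 0.24 on those labelled wild type (SD, n = 3 each).

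Of 29 tested genes known as targets of the members, 3 fell and none rose, and the median difference was -0.10. The share was 10.3%, beside 4.84% of all tested genes (2% lower), again in a list chosen with earlier results known. Krt1, a keratin of differentiating layers, fell by 5.28 ± 0.54, the small proline-rich protein Sprr2d by 3.76 ± 0.76 and the tight junction gene Cldn1 by 1.67 ± 0.32 on the log2 scale, with limma adjusted p-values of 0.0088, 0.044 and 0.039. In the deposited log ratio the differences were -5.27, -0.95 and -1.07, and Krt1 alone of the 3 passed. 0 passed without labelled knockout replicate 3 or labelled wild-type replicate 1, 1 without labelled wild-type replicate 2, and 2 or 3 without each of the others, while 5 passed with the replicate block. No member, Klf4, Grhl1 and Zfp750 included, passed the threshold in the same fit. The list does not say which member acts on which target, and a link between them was not tested.

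**Figure D5:**
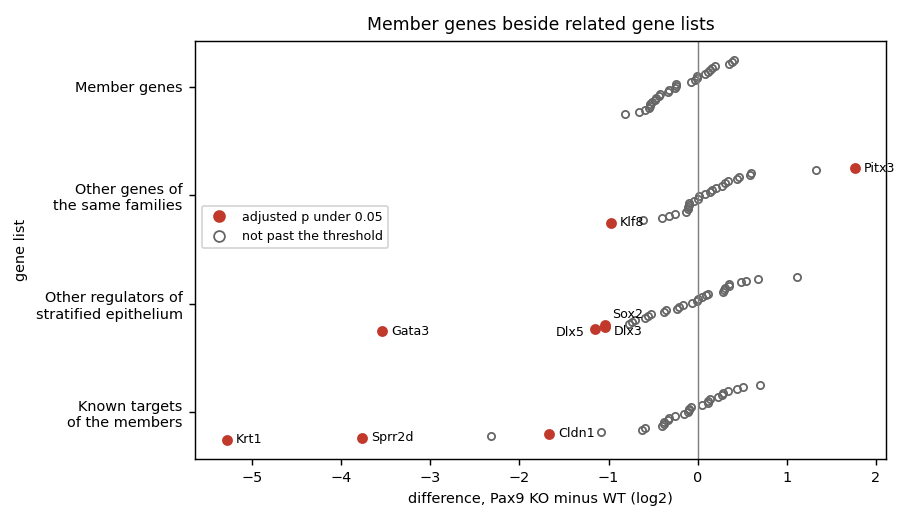
The difference of labelled Pax9 KO minus labelled WT on the log2 scale (horizontal axis) of each tested gene in the member list and in 3 related lists, with genes past the threshold filled and named. The members lie between -0.82 and 0.41 with none filled, while Gata3, Krt1 and Sprr2d lie beyond -3.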

How the data were processed

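The 6 arrays were 3 labelled Pax9 knockout and 3 labelled wild type, grouped by genotype label. The authors deposited scanner files with linear intensity in both channels for each of 45018 spots. Per the file headers, Agilent Feature Extraction 10.7.3.1 wrote them for array design 014868, whereas version 9.1 stands in the submitters' processing notes. The authors also deposited a log10 ratio of Cy5 over Cy3, and a series matrix of log2 values. The matrix correlated at -0.993 to -0.996 with the scanner log2 ratio, so its sign is opposite, and its column medians lay between -0.02 and 0.02, with the centring not given in the sources used here.

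Background was corrected with normexp (offset 50) and each array was loess-normalized, giving control spots a weight of 0. Outlier spots (55 to 164 per array) were left out, and no spot was saturated. Probes entered the test when the scanner called them well above background in Cy5 on every array of either group. Per array, 67.3 to 77.3% of probes were so called. The tested probe with the highest mean intensity stood for its gene. The number of arrays limits the precision, and 3 against 3 arrays cannot go below p = 0.1 in an exact permutation test. Differences were fitted with limma 3.58.1 in R 4.3.3 (two-sided, Benjamini-Hochberg over all tested probes, threshold 0.05), after a test on simulated data. For single channels, Aquantile followed loess, and limma was fitted to each channel.

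Names came from RefSeq genes of GRCm38.p6 (26918 probes by accession, 5082 by symbol, 817 by synonym, 8357 with the name in the files), and positions are those of the files on mm9. Exon and UTR annotation was not used here. The genes named are all members, Pax9, each related list's genes past the threshold with its 3 smallest p-values, and the 2 brightest markers. Members and lists were chosen with earlier results of these data known. Same-numbered arrays of the groups deviated together for numbers 2 and 3 (r = 0.492 and 0.322 over genes). For number 1 r was 0.142, below the 0.16 of labelled knockout 3 with labelled wild type 1. The remaining pairs of unlike number lay between -0.469 and 0.1. Replicates 1, 2 and 3 lay at positions 2, 3 and 4 of the slide in both groups, so number and position cannot be told apart. A replicate block was fitted as an alternative. The others were the deposited values, other background correction, normalization, filters and variance models, a mean over probes and leaving out each array.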

Additional observations from a re-analysis of the deposited data

How the results depend on the processing

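No member passed the threshold in the fit reported, with a replicate block, with an intensity trend in the variance, with the mean over probes, with median centring, with probes well above background on all 6 arrays, or with any array left out (0 to 0 members). 1 member, Ovol2, passed with Feature Extraction's processed signals (difference -1.59), with the deposited log ratio, with the series matrix values and with no filter on dim probes (limma adjusted p = 0.037). Of all tested genes, 2.49% passed with the processed signals, 2.74% with the deposited log ratio, 2.69% with the matrix values and 4.44% with no filter. With array weights 3 of the 28 members passed (Klf6, Ovol2 and Cebpa), beside 11.9% of all tested genes. With Cy5 alone 8 of the 28 passed, beside 30.7%. The count over all genes was 1007 of 20820 tested. It was 519 with the processed signals, 571 with the deposited log ratio, 561 with the matrix values and 120 with median centring. Cy5 alone gave 6393, array weights 2469, the trend 1122 and the mean over probes 1222. The replicate block that pairs the arrays gave 1707. The filters changed the genes tested, with 558 of 17410 under the stricter filter and 1249 of 28104 with none. The block changed no call of a member. Leaving out 1 array gave 34 to 826 genes: 267, 676 and 34 without labelled knockout replicates 1, 2 and 3, and 87, 164 and 826 without labelled wild-type replicates 1, 2 and 3. Without replicate 2 of both groups, chosen after seeing the data because of its muscle signal, it was 324.

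Of 502 member values under alternatives, 55 turned in sign, and none of those passed the threshold. With the processed signals, Klf3 was -0.027, Ehf -0.19, Zfp750 0.12, Maf 0.032 and Pou2f3 0.78. The deposited log ratio, like the matrix values, gave Klf3 -0.040, Ehf -0.20, Zfp750 0.11, Maf 0.058 and Pou2f3 0.60. Median centring gave Klf4 0.071, Elf5 0.13, Maf 0.42, Tfap2b 0.21, Hopx 0.50, Barx2 0.33 and Pitx1 0.059. With Cy5 alone, Elf5 was 0.40, Ovol2 0.46, Cebpd -0.22, Maf 0.40 and Hopx 0.70. Array weights gave Elf3 -0.010 and Cebpd -0.11, and the mean over probes gave Maf 0.19, Tfap2b 0.87 and Barx2 0.15. Without replicate 2 of both groups, Elf5 was 0.091, Maf 0.15, Tfap2a 0.020, Hopx 0.30 and Barx2 0.44. With 1 array left out, Klf3 ran from -0.15 to 0.47, Elf3 from -0.15 to 0.27, Elf5 from -0.48 to 0.13, Ehf from -0.17 to 0.38, Cebpd from -0.22 to 0.43, Maf from -0.13 to 0.096, Hopx from -0.26 to 0.17 and Barx2 from -0.29 to 0.22. The cause was not tested. Slide could not be fitted as a block, since each group lay on its own slide. Tfap2b, Pou2f3 and Barx1 were too near background for their signal to carry a difference on every array.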

Other observations

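Of the marker lists for other cells, skeletal muscle (Tnni2 and Tnnc2 the brightest) had 1 of 12 genes past the threshold, higher on the arrays labelled knockout (8.33%), and macrophage and dendritic cells (Lyz2 and Cd74) had 2 of 11 past it, both lower (18.2%). Smooth muscle (Acta2 and Tagln), endothelium (Eng and Emcn), fibroblasts (Col1a2 and Col3a1) and simple epithelium (Krt18 and Krt8) had none. The median difference was 1.14 for skeletal muscle, 0.56 for endothelium, -0.67 for macrophage and dendritic cells and -0.19 for the 14 esophageal epithelium markers, of which none passed. Over all tested genes the median was 0.01, and 2.83% passed the threshold higher and 2% lower. A change in the mix of cells was not tested.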
